A study of Mus musculus with 5 samples.

Results

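The genes described here are 10 genes of the NF-kB pathway, found by symbol among the 35976 genes of a table of raw read counts. They are the subunit genes Nfkb1, Nfkb2, Rela and Relb, the feedback genes Nfkbia, Nfkbie, Tnfaip3 and Bcl3, and the adhesion molecule genes Icam1 and Vcam1, and all 10 symbols were present. RNA was sequenced from cells of the mouse amygdala that had been bound to magnetic beads against the astrocyte surface antigen ACSA-2. The design asked how loss of CCR2-expressing monocytes during chronic stress alters these cells. The toxin group comprised 3 libraries labelled DTx, for diphtheria toxin, called DTx 5A, 6A and 7A here, and its control comprised 2 libraries labelled saline, replicates 1 and 2. Mice of both groups had the genotype Ccr2::CreERT2/+;DTR/+, in which tamoxifen activates a Cre recombinase made by Ccr2-expressing cells and the recombinase turns on a receptor for the toxin. Both groups received tamoxifen, 18 days of tube restraint, fear conditioning and extinction, so no unstressed group and no group without the transgenes enters the comparison. Age is given for neither group.

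NF-kB proteins are dimers of Rel family subunits that are held in the cytoplasm by inhibitors of the IkB family until an inflammatory signal such as TNF or interleukin-1 triggers the destruction of the inhibitor. The freed dimer enters the nucleus and switches on, among many other genes, those of its own inhibitors, which ends the response. In the brain the pathway is known for driving inflammatory gene expression in astrocytes, microglia and the vessel wall, where the adhesion molecules ICAM-1 and VCAM-1 hold leukocytes.

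Sequences upstream of the start site are shown for 3 genes whose levels did not overlap between the groups. They are the 250 bases before the RefSeq start in build GRCm38.p6, written 5′ to 3′ on the gene's strand, and capitals mark matches to the decameric NF-kB consensus or to the letters GGAAATTCC, both searched on both strands. Nfkbia lies on the minus strand (window chr12:55492648-55492897), Nfkbie on the plus strand (window chr17:45555450-45555699) and Icam1 on the plus strand (window chr9:21015690-21015939).
Nfkbia: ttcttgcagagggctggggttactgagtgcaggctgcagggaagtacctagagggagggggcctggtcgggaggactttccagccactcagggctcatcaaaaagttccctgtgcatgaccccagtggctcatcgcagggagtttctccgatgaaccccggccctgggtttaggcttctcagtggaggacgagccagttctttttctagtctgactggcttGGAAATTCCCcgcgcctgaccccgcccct
Nfkbie: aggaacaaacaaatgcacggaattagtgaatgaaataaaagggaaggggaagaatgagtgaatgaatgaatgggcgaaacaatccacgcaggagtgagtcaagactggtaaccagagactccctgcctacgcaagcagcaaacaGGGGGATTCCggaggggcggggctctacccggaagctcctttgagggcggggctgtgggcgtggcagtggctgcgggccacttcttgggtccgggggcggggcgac
Icam1: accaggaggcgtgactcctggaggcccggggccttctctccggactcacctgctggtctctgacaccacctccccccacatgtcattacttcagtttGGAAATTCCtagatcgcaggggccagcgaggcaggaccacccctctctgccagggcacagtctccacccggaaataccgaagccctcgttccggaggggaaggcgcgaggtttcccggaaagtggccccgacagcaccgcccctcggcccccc
The Nfkbia match lies 20 to 29 bases before the start and holds the consensus and GGAAATTCC in the same letters. The Nfkbie match, 97 to 106 bases before the start, is to the consensus, and the Icam1 match, 145 to 153 bases before the start, is to GGAAATTCC alone. RefSeq start windows were found for 7 of the 10 genes. Among the other 4, Nfkb2, whose groups overlap, had consensus matches. Tnfaip3, whose groups also overlap, had consensus matches and GGAAATTCC on the opposite strand. Rela had no match of either kind in this window, and neither did Bcl3, whose groups do not overlap and whose sequence is not shown. Of all 32851 windows of this length, 7.25% held the consensus and 0.286% held GGAAATTCC. By gene, the shares were 8.23% and 0.344% of 27025 genes.

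Levels are counts-per-million (CPM) values after TMM scaling of library size. Total counts were 15961220 to 18708138 in the DTx-labelled libraries and 20577672 and 23720299 in the saline libraries, so that 1 count stood for 0.0529 to 0.0622 CPM and for 0.0462 and 0.0448 CPM. Ccr2, the gene whose locus drives the recombinase, had 54, 4 and 4 counts in DTx 5A, 6A and 7A and 0 counts in both saline libraries, which runs against the loss of CCR2-expressing cells implied by the label. The groups are therefore called as labelled. Y-linked genes (Ddx3y, Eif2s3y, Uty and Kdm5d) summed to 185 to 201 CPM in the DTx-labelled libraries and to 0.185 and 0.0897 CPM in saline, and Xist stood at 0 to 0.159 CPM and at 173 and 129 CPM. The treatment and the sex chromosomes thus cannot be told apart in any comparison here. All 14 astrocyte markers were detected in every library, with summed levels of 29040 to 32190 CPM in the DTx-labelled libraries and 29090 and 29130 CPM in saline, while oligodendrocyte markers summed to 42980 to 90700 CPM and to 60230 and 92810 CPM. In such bulk samples, fewer cells of a type and less RNA per cell cannot be told apart.

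Fitted levels of the 4 feedback genes and Icam1 were 1.73-fold to 5.37-fold higher in the DTx-labelled libraries, and those of the 4 subunit genes and Vcam1 stood at 0.914-fold to 1.23-fold of saline, but none of the 10 genes passed the test across the transcriptome. With edgeR's quasi-likelihood test and Benjamini-Hochberg adjustment over the 15532 genes tested, the adjusted p of the 10 genes lay between 0.778 and 0.953. The test called 0.0322% of all genes at an adjusted p of 0.05, and these 5 were the Y-linked genes named above and Xist. At an unadjusted p under 0.05, 4 of the 10 genes were higher (Nfkbia, Nfkbie, Bcl3 and Icam1), where the background was 4.29% of all genes. DESeq2, the edgeR likelihood ratio test and limma-voom also called 0 of the 10 at an adjusted p of 0.05, against backgrounds of 0.729%, 0.599% and 0.0322% of the genes tested.

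Levels did not overlap between the groups in 5 of the 10 genes, all with DTx-labelled libraries higher, where 12.1% of all genes did so in this direction and 8.99% in the other. The fitted log2 fold change, DTx over saline, was above 0 in 8 of the 10 genes (50.3% of all genes), with a median of 0.55 against 0.002 over all genes tested. All 10 genes passed the low-count filter, which needs 2 libraries over about 0.535 CPM. Bcl3 reached that level only in DTx-labelled libraries and so had to differ to be tested, and Icam1 reached it in 1 of the 2 saline libraries. Among the 9 genes other than Bcl3, 7 were higher, 4 did not overlap, 3 were higher at an unadjusted p under 0.05 and the median was 0.30. Over all 15119 genes that reached the level in a saline library, 49% were higher, 11.1% did not overlap with DTx-labelled libraries higher and 3.64% were higher at that p.

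**Figure D1:**
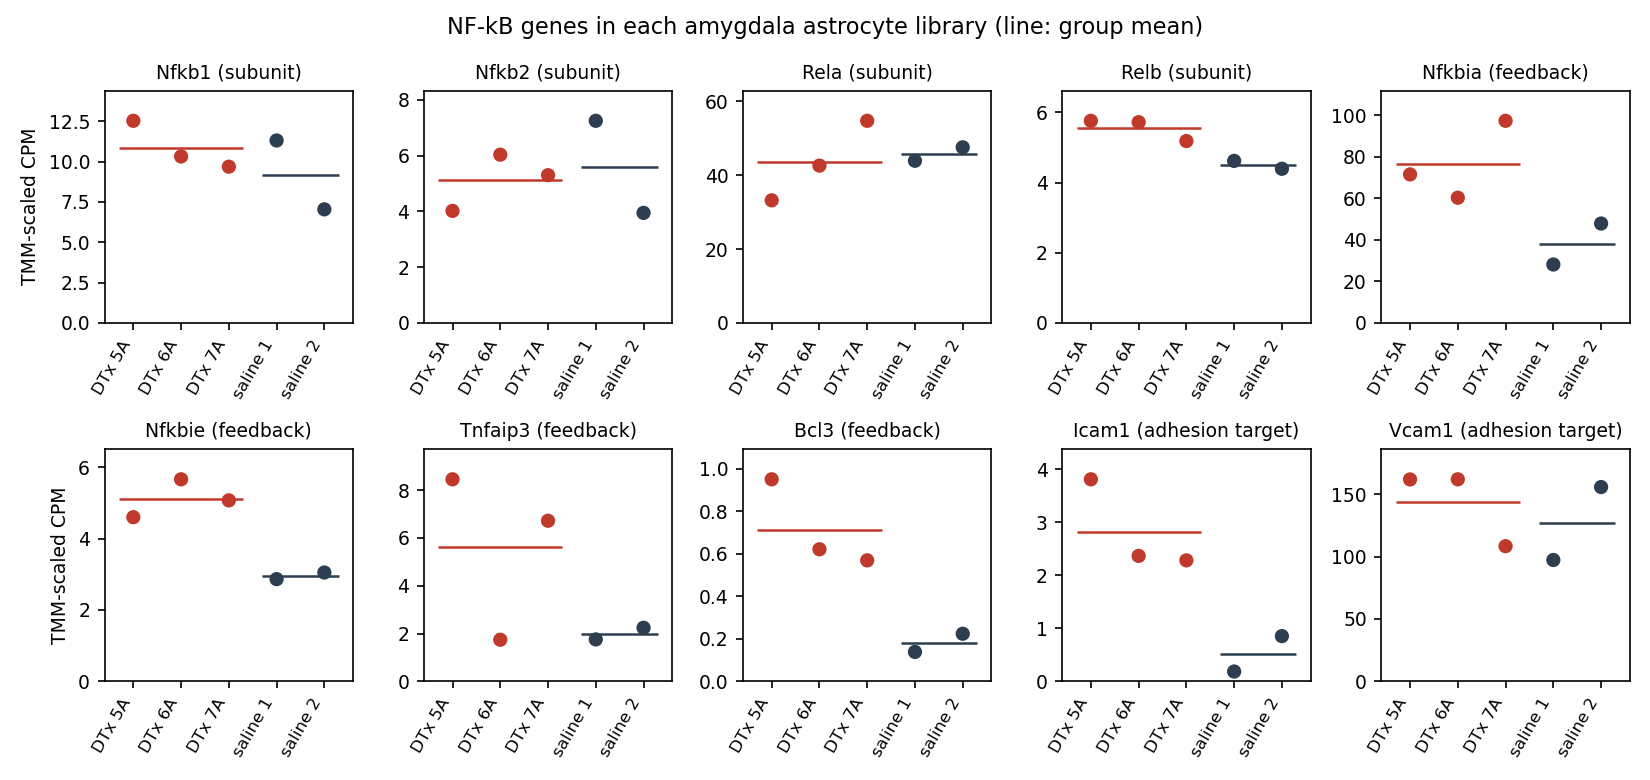
TMM-scaled CPM (vertical axes, each from 0) of the 10 NF-kB genes in DTx-labelled libraries 5A, 6A and 7A (red) and saline libraries 1 and 2 (dark blue), with a line at each group mean. Relb, Nfkbia, Nfkbie, Bcl3 and Icam1 show no overlap, and Tnfaip3 in library 6A, at 1.74 CPM, lies beside the saline libraries at 1.75 and 2.24 CPM.

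Per kilobase of annotated exon (GENCODE M21 union of all transcripts), Nfkbia had the highest level of the 10 genes at 37.9 CPM per kb over the 5 libraries (range 17.5 to 60.5). It was followed by Vcam1 at 15.4 (11 to 18.3) and Rela at 14.5 (10.8 to 17.8) CPM per kb, whose ranges overlap each other and the lower end of Nfkbia. The remaining 7 genes lay below Rela with no overlap, from Nfkbie at 1.39 CPM per kb down to Bcl3 at 0.202 CPM per kb. Within these 7, no gene was separated in range from the next one down.

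Among the subunits, Rela encodes the transactivating partner of the canonical dimer (GRCm38 chromosome 19, 5637483 to 5648130, plus strand). It stood at 33.2, 42.6 and 54.7 CPM in DTx 5A, 6A and 7A and at 43.9 and 47.6 CPM in saline. The DTx-labelled libraries lie on both sides of the saline ones, and the log2 fold change was -0.07 (95% interval -0.60 to 0.45, edgeR adjusted p = 0.953). Nfkb1, which encodes the precursor of the DNA-binding partner of RelA (chromosome 3, 135584655 to 135691547, minus strand), stood at 12.5, 10.3 and 9.68 CPM in the same DTx libraries and at 11.3 and 7.04 CPM in saline. Here the saline replicates span most of the range, and the log2 fold change was 0.24 (95% interval -0.39 to 0.87).

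Nfkb2 and Relb encode the partners of the noncanonical dimer. Nfkb2 (chromosome 19, 46304320 to 46312385, plus strand) stood at 4.02, 6.03 and 5.30 CPM in DTx 5A, 6A and 7A and at 7.25 and 3.94 CPM in saline. The saline replicates were the highest and the lowest of the 5 libraries, and the log2 fold change was -0.13 (95% interval -0.97 to 0.71). Relb (chromosome 7, 19606217 to 19629438, minus strand) stood at 5.76, 5.72 and 5.18 CPM in the DTx libraries and at 4.62 and 4.39 CPM in saline. Its groups do not overlap, yet the difference was small, at 1.23-fold (95% interval 0.828 to 1.83, edgeR adjusted p = 0.827). The sign of the fold change turned without saline replicate 2 for Nfkb1 (-0.06), without saline replicate 1 (0.37) or DTx library 5A (0.014) for Nfkb2 and without library 5A (0.088) for Rela. Nfkb2 shares 299 bases of exon with Psd on the opposite strand, and Psd had 250, 268 and 254 counts in the DTx libraries and 391 and 171 in saline. Both genes had their highest count in saline replicate 1. Psd had its lowest in saline replicate 2, while Nfkb2 had 76 counts in DTx library 5A and 88 in saline replicate 2. Nfkb2 also shares 531 bases of exon with an annotated noncoding gene on the opposite strand, for which no counts were given. Whether the counting used the strand is not given in the sources used here.

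Nfkbia encodes IkBα, the inhibitor that NF-kB itself induces within an early phase of the response (chromosome 12, 55489410 to 55492647, minus strand). It stood at 71.6, 60.3 and 97.4 CPM in DTx 5A, 6A and 7A and at 28.1 and 47.9 CPM in saline. Every DTx-labelled library lies above both saline replicates. The fitted difference was 2.01-fold (95% interval 1.22 to 3.32), or a log2 fold change of 1.01 ± 0.30 (SE, edgeR adjusted p = 0.789), and 1.71% of all genes tested had a smaller p. The ratio of Nfkbia to Rela counts within a library, which no scaling between libraries alters, was 2.16, 1.42 and 1.78 in the DTx libraries and 0.64 and 1.01 in saline. Other such ratios overlapped between the groups. Nfkbia to Nfkbie was 15.6, 10.7 and 19.2 in the DTx libraries and 9.82 and 15.7 in saline. Relb to Rela was 0.174, 0.134 and 0.0947 against 0.105 and 0.0924, and Nfkb2 to Nfkb1 was 0.321, 0.584 and 0.547 against 0.641 and 0.561.

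Nfkbie encodes IkBε, a slower inhibitor of the same family (chromosome 17, 45555703 to 45563169, plus strand). Its levels were 4.6, 5.66 and 5.07 CPM in DTx 5A, 6A and 7A and 2.86 and 3.05 CPM in saline. Replicates of both groups lie close together, and the difference was 1.73-fold (95% interval 1.1 to 2.7, edgeR adjusted p = 0.789), with a smaller p in 2.85% of all genes tested.

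Bcl3 encodes an atypical, nuclear IkB protein that binds dimers on DNA (chromosome 7, 19808462 to 19822770, minus strand). It had 18, 10 and 10 counts in DTx 5A, 6A and 7A and 3 and 5 counts in saline, or 0.951, 0.622 and 0.570 CPM and 0.139 and 0.224 CPM. The groups do not overlap, although the saline values rest on 8 counts in all. The log2 fold change was 1.94 ± 0.61 (SE, edgeR adjusted p = 0.789).

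Tnfaip3 encodes a ubiquitin-editing enzyme that shuts off signalling upstream of the IkB kinases (chromosome 10, 19000910 to 19015657, minus strand). It stood at 8.46, 1.74 and 6.72 CPM in DTx 5A, 6A and 7A and at 1.75 and 2.24 CPM in saline. Libraries 5A and 7A are high and library 6A is the lowest of the 5, so the groups overlap. The log2 fold change was 1.5 with a wide 95% interval of -0.09 to 3.08 (edgeR adjusted p = 0.797). Among the 4 feedback genes it had the largest spread within the DTx-labelled libraries, with an SD of 1.23 on the log2 CPM scale against 0.15 for Nfkbie.

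Icam1 encodes the ligand of leukocyte β2 integrins (chromosome 9, 21015985 to 21028817, plus strand). It had 72, 38 and 40 counts in DTx 5A, 6A and 7A and 4 and 19 counts in saline, or 3.81, 2.36 and 2.28 CPM and 0.185 and 0.852 CPM. All DTx-labelled libraries lie above both saline replicates, and on the log2 CPM scale the saline replicates had the larger spread, with an SD of 1.56 against 0.413. The log2 fold change was 2.43 ± 0.67 (SE), or 5.37-fold (95% interval 1.76 to 16.4), with the smallest p of the 10 genes (edgeR adjusted p = 0.778) and a smaller p in 1.22% of all genes tested. Its size depended on the saline library kept, with a log2 fold change of 3.88 without saline replicate 2 and 1.72 without saline replicate 1. An annotated antisense gene shares 511 bases of exon with Icam1 and has no row in the count table.

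Vcam1 encodes the ligand of integrin α4β1 (chromosome 3, 116109949 to 116129688, minus strand) and was abundant in every library. It stood at 162, 162 and 108 CPM in DTx 5A, 6A and 7A and at 97.2 and 156 CPM in saline. The groups overlap, with DTx library 7A and saline replicate 1 low, and the fitted difference was 1.14-fold (95% interval 0.727 to 1.78, edgeR adjusted p = 0.904). Its sign turned without saline replicate 1, to a log2 fold change of -0.12. The ratio of Icam1 to Vcam1 counts within a library was 0.0235, 0.0146 and 0.0210 in the DTx libraries and 0.0019 and 0.00547 in saline.

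**Figure D2:**
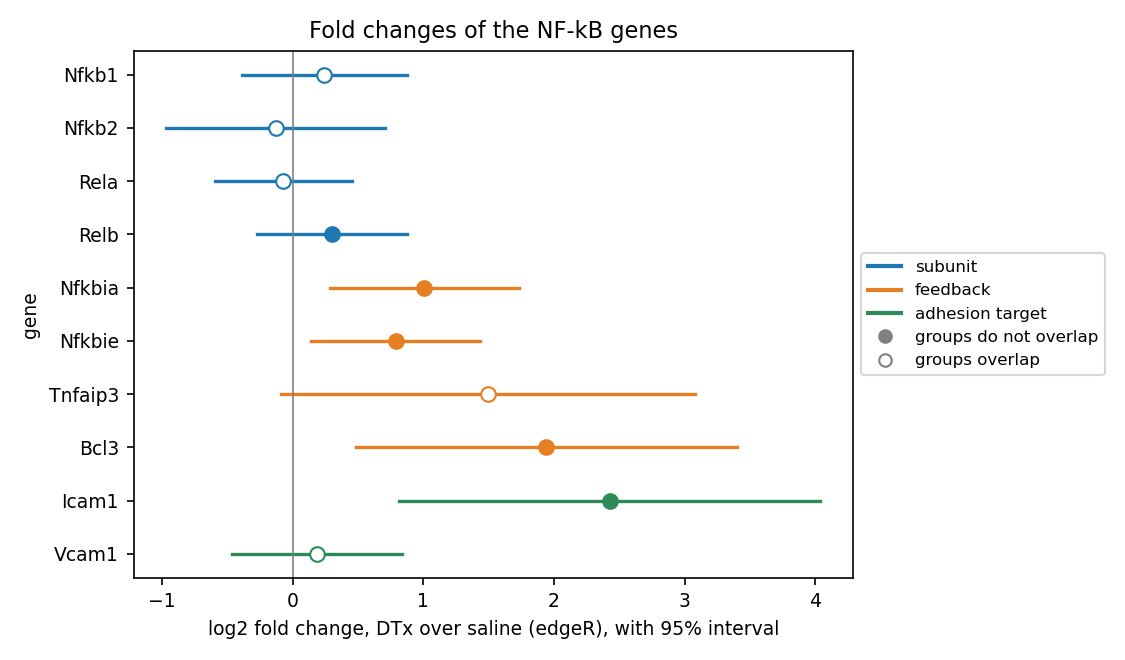
Fitted log2 fold change, DTx over saline (horizontal axis), of each of the 10 NF-kB genes (vertical axis) with its 95% interval, unadjusted for the number of genes; colours give the role, and filled points mark genes whose groups do not overlap. The intervals of Nfkbia, Nfkbie, Bcl3 and Icam1 lie above 0, and those of the 4 subunits, Tnfaip3 and Vcam1 include it.

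Markers of other cell types moved with some of these genes, and their part in the differences was not tested. Of 15 microglia markers, 3 had no overlap with DTx-labelled libraries higher (12.1% of all genes). The fitted log2 fold change was above 0 for 14 of the 15 (50.3% of all genes). None of the 15 was past the adjusted threshold of the edgeR test. Their summed level was 368, 298 and 235 CPM in DTx 5A, 6A and 7A and 118 and 259 CPM in saline, and no marker was at 0 in any library. Saline replicate 1, which had the lowest level of Icam1, Nfkbia, Nfkbie, Bcl3 and Vcam1, also had the lowest microglia sum. From high to low, the microglia sum ran DTx 5A, DTx 6A, saline 2, DTx 7A and saline 1. Icam1 had the same order except that DTx 7A stood above saline 2. Nfkbia ran DTx 7A, DTx 5A, DTx 6A, saline 2 and saline 1.

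Markers of monocytes and border macrophages summed to 223, 27.9 and 82.1 CPM in DTx 5A, 6A and 7A and to 25.4 and 36.0 CPM in saline. Of the 8 markers tested, 7 were higher (50.3% of all genes) and 0 were past the threshold. Groups without overlap and with DTx-labelled libraries higher were seen in 0 of the 8 (12.1% of all genes). Ly6c2, a marker of inflammatory monocytes, had 0 counts in all 3 DTx-labelled libraries and 0 and 2 counts in saline, and Plac8 had no count in DTx library 7A and saline replicate 2. Among the most abundant, Lyz2 (lysozyme) stood at 91.3, 9.76 and 29.2 CPM in the DTx libraries and at 6.42 and 9.82 CPM in saline, and Mrc1 (the mannose receptor) at 38.0, 5.10 and 14.7 CPM and at 4.34 and 6.50 CPM. Within the DTx-labelled group Tnfaip3 had the same order, with library 5A highest and 6A lowest. Icam1 and Bcl3 were also highest in 5A, at 72 and 18 counts, with 6A and 7A nearly level at 38 and 40 counts for Icam1 and 10 and 10 for Bcl3. Nfkbie had the opposite order to the macrophage sum, and Nfkbia was highest in 7A and lowest of the group in 6A. Without DTx library 5A, the library with the highest macrophage sum, the log2 fold changes of Icam1, Bcl3, Tnfaip3, Nfkbia and Nfkbie were 2.15, 1.68, 1.08, 1.05 and 0.86.

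Endothelial markers, of cells known to carry both adhesion molecules, were higher for 7 and lower for 7 of 14 tested, and their sum was 544, 470 and 505 CPM in DTx 5A, 6A and 7A against 475 and 580 CPM in saline. That sum was mostly Bsg and Slc2a1. Kdr, the receptor of vascular endothelial growth factor and a member of this list, stood at 7.03, 4.54 and 5.47 CPM in the DTx libraries and at 9.19 and 8.43 CPM in saline (edgeR adjusted p = 0.789). Bsg, Slc2a1 and Kdr were among the 7 lower markers, with log2 fold changes of -0.04, -0.15 and -0.63. Among the 7 higher markers, Itm2a had a log2 fold change of 0.61 with overlapping groups. Slco1a4 (0.58), Flt1 (0.51) and Ly6c1 (0.44), named after their values were seen, were also higher. Of these, only Ly6c1 had no overlap between the groups. The junction genes Cldn5, Pecam1 and Cdh5, named after their values were seen and also among the lower markers, were at 0.249 to 1.37 CPM in the DTx libraries and 0.314 to 1.44 CPM in saline. Pericyte and smooth muscle markers summed to 344, 290 and 352 CPM in the DTx libraries and to 206 and 471 CPM in saline. None of 15 endothelial markers was at 0 in any library, and of the 12 pericyte and smooth muscle markers only Tagln was. Neuron markers were above 0 for 10 of 12 (50.3% of all genes), and 5 had no overlap with DTx-labelled libraries higher (12.1% of all genes). They summed to 732, 910.4 and 757 CPM in the DTx libraries and to 592 and 589 CPM in saline. Ependymal markers summed to 212, 49.1 and 36.9 CPM in the DTx libraries and to 310.3 and 34.2 CPM in saline, with DTx 5A and saline replicate 1 high.

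**Figure D3:**
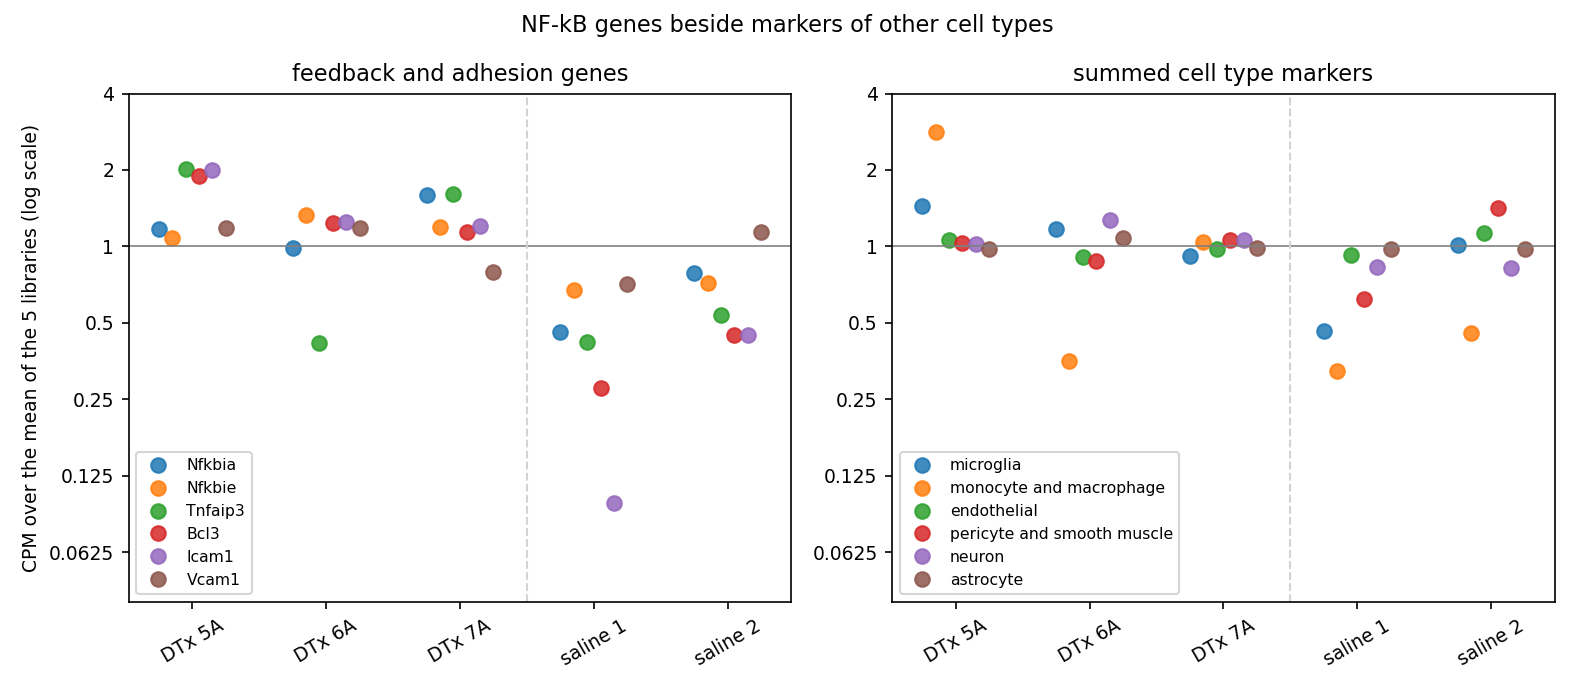
Level in each library relative to the mean of the 5 libraries (log scale) for the 4 feedback genes and 2 adhesion genes (left) and for summed CPM of 6 cell type marker lists (right); the dashed line separates DTx-labelled from saline libraries. Tnfaip3 and the macrophage sum are high in library 5A and low in 6A, while Nfkbie is not, and the astrocyte sum is nearly level.

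Upstream genes of the pathway were described from lists by role, of which 0 genes passed the adjusted threshold of the edgeR test. Their counts stand against the same background as above, 50.3% of all genes above 0 and 12.1% without overlap with DTx-labelled libraries higher. Of 10 ligand genes 4 could be tested and all 4 were above 0, with a median log2 fold change of 0.93. Of these, Il1b was over the filter level in no saline library and had to differ to be tested, and without it the median of the other 3 was 0.36. Il1b, the inflammasome-processed cytokine, stood at 3.28, 0.373 and 1.94 CPM in DTx 5A, 6A and 7A and at 0.369 and 0.314 CPM in saline (edgeR adjusted p = 0.789). Il1a stood at 1.59, 1.62 and 0.684 CPM in the DTx libraries and 0.185 and 0.717 CPM in saline. Tnfsf12, the ligand TWEAK, was at 5.18, 5.72 and 5.24 CPM and at 4.48 and 4.08 CPM, and Tnfsf13b had a log2 fold change of 0.36. Tnf itself had 5, 11 and 1 counts in the DTx libraries and 0 and 1 counts in saline, too few to be tested.

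Of 11 receptor genes tested, 8 were above 0 (50.3% of all genes), 5 did not overlap with DTx-labelled libraries higher (12.1% of all genes) and the median log2 fold change was 0.28. Each of the 11 was over the filter level in a saline library. Tlr2, a receptor of bacterial lipoproteins, stood at 9.99, 6.78 and 5.07 CPM in DTx 5A, 6A and 7A and at 2.49 and 2.91 CPM in saline, a log2 fold change of 1.43 ± 0.36 (SE, edgeR adjusted p = 0.761). Tnfrsf12a, the receptor of TWEAK, stood at 2.96, 2.3 and 2.45 CPM in the DTx libraries and at 1.2 and 1.21 CPM in saline (adjusted p = 0.789). Cd14, the lipopolysaccharide co-receptor, was at 32.9, 4.42 and 13.7 CPM and at 2.31 and 3.59 CPM, in the library order of Lyz2 within the DTx-labelled group. Tnfrsf1b, a TNF receptor, was at 1.53, 1.56 and 0.968 CPM in the DTx libraries and 0.462 and 0.717 CPM in saline.

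Adaptors and kinases that carry the signal to IkB were balanced, with 9 above and 11 below 0 of 20 tested and a median log2 fold change of -0.04. Irak1 and Ripk1, kinases of the interleukin-1 and TNF receptor arms, had log2 fold changes of 0.27 and 0.39, and the adaptors Tradd and Tab2 had -0.47 and -0.27, with edgeR adjusted p of 0.797 to 0.803. A list of other regulators, most of them negative, was likewise balanced, with 8 above and 7 below 0 of 15 tested and a median of 0.002. The genes with the smallest p in that list were N4bp1 (0.30), Itch (-0.27), Pdlim2 (-0.38) and the deubiquitinase Otulin (0.22). Sharpin (0.01), Rbck1 (0.10) and Rnf31 (0.16) are in the same list but are not negative regulators.

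All 5 further Rel, IkB and related genes were above 0 with overlapping groups, of which Nfkbid was over the filter level only in DTx-labelled libraries. Nfkbiz and Nfkbid, atypical nuclear IkB genes like Bcl3, stood at 16.0, 3.73 and 9.23 CPM and at 1.27, 0.249 and 1.02 CPM in DTx 5A, 6A and 7A, against 4.62 and 3.90 CPM and 0.185 and 0.359 CPM in saline. Both had the library order of Tnfaip3 within the DTx-labelled group, with 6A lowest. Nfkbib and Rel had log2 fold changes of 0.11 and 0.29.

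Of 21 other NF-kB target genes tested, 17 were above 0 (50.3% of all genes), 8 did not overlap with DTx-labelled libraries higher (12.1% of all genes), and the median log2 fold change was 1.004. Of these, 5 (Ptgs2, Ccl5, Cxcl1, Cxcl2 and Cxcl10) were over the filter level in no saline library and had to differ to be tested. Among the other 16, 12 were above 0, 5 did not overlap with DTx-labelled libraries higher and the median was 0.35. Over all genes that reached the filter level in a saline library, the shares were 49% and 11.1% and the median was -0.007. Ptgs2, the inducible cyclooxygenase, stood at 1.80, 0.435 and 1.08 CPM in DTx 5A, 6A and 7A, from 60 counts against 2 in saline, a ratio of 25.1 (95% exact interval 6.65 to 212, counting error only). The chemokine genes Ccl5 and Cxcl10 had no count in either saline library. Ccl5 had 27, 47 and 5 counts in DTx 5A, 6A and 7A, at least 22-fold higher against a floor of 3 counts over the saline group. Cxcl10 had 87, 187 and 9 counts in the same libraries, at least 78.9-fold higher against that floor. Both genes were highest in 6A and low in 7A, and without 6A the bounds were 12.9-fold for Ccl5 and 38.6-fold for Cxcl10. These bounds pool the counts of the libraries and cover counting error only. They leave out the variation among libraries and so do not bound the difference between the groups. Tap1, the peptide transporter of antigen presentation, stood at 8.72, 8.96 and 4.67 CPM in the DTx libraries and at 3.42 and 2.78 CPM in saline (edgeR adjusted p = 0.789). Ccl5, Cxcl10 and Tap1 are also known as interferon targets. The 4 targets with a fitted value below 0, named after their values were seen, were Junb (-0.65), Csf1 (-0.27), Bcl2l1 (-0.19) and Sod2 (-0.01). Sod2, the mitochondrial superoxide dismutase, stood at 155, 177 and 183 CPM in the DTx libraries and at 151 and 195 CPM in saline. Lcn2 and Saa3, with too few counts to be tested, had 1 and 2 counts in the DTx libraries and 1 and 0 in saline.

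Other adhesion genes were above 0 for 6 of 9 tested, with a median log2 fold change of 0.12. Their smallest p belonged to L1cam, at 5.71, 6.34 and 4.73 CPM in DTx 5A, 6A and 7A and 4.02 and 1.88 CPM in saline (edgeR adjusted p = 0.789), followed by Cd34, F11r and Ncam1 with log2 fold changes of 0.48, 0.48 and -0.14. Sele, the endothelial selectin that NF-kB induces in activated vessels, had 0 counts in all 5 libraries. Of the leukocyte partners of adhesion molecules, which include the selectin ligand gene Selplg, 4 of 5 tested were above 0. Itgb2, the shared chain of β2 integrins and also a microglia gene, stood at 6.45, 4.23 and 3.25 CPM in the DTx libraries and at 0.785 and 3.09 CPM in saline. Itgam, which is also in the microglia list, Selplg and Itgb1 had log2 fold changes of 0.67, 0.55 and -0.14.

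**Figure D4:**
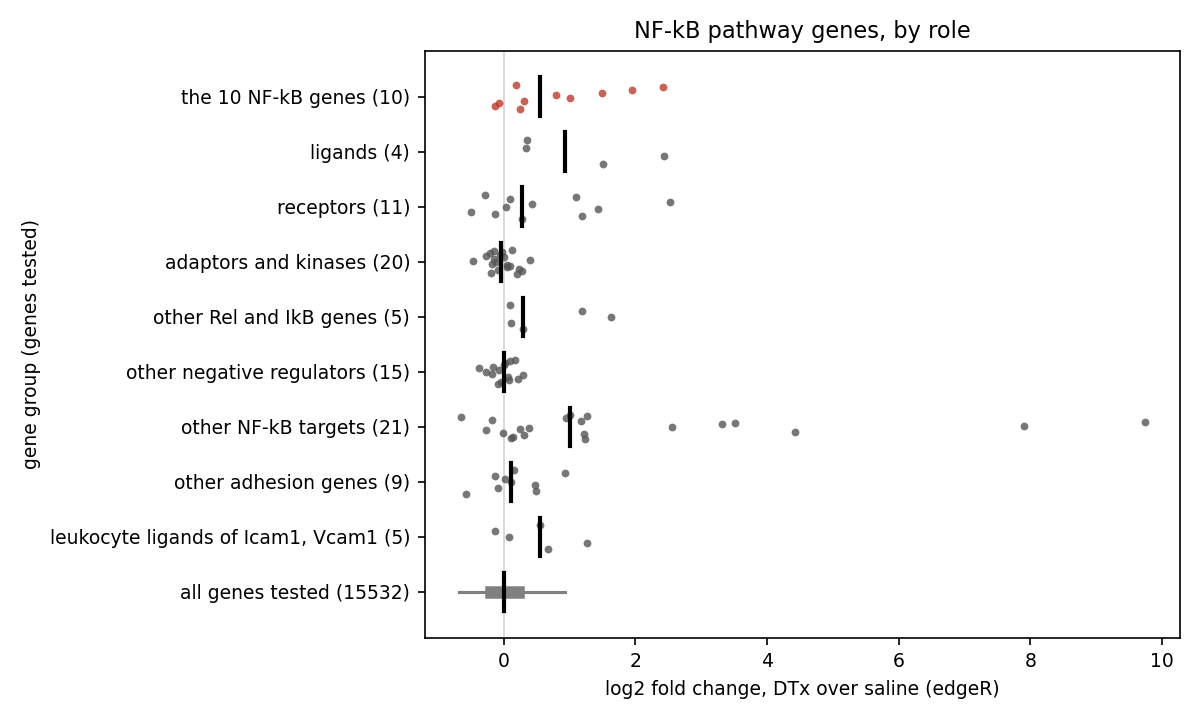
Fitted log2 fold change, DTx over saline (horizontal axis), of each gene tested in the 10 NF-kB genes (red) and in 8 pathway lists (grey), with a black bar at the median; for all 15532 genes the thin and thick lines span the 5th to 95th and 25th to 75th percentiles. Adaptors, kinases and the list drawn as other negative regulators, which also holds Sharpin, Rbck1 and Rnf31, are centred near 0. The points farthest right, Ccl5 and Cxcl10, had no saline count, so their fitted values depend on the prior count.

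The genes whose pattern over the 5 libraries was most like Nfkbia, Icam1 and Vcam1 were found by the Euclidean distance between centred log2 CPM profiles, among 12624 genes with a mean of at least 1 CPM. For Nfkbia they were Ptafr, Slc7a8 and Smpdl3b, at distances of 0.154, 0.226 and 0.259. For Icam1 they were Fcgr2b, Nts and Cd84, at 0.621, 0.676 and 0.701. For Vcam1 they were D6Wsu163e, Ndp and Sec61g, at 0.0808, 0.0854 and 0.102. Over 5 libraries such likeness is a description alone.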

How the data were processed

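The authors deposited a table of raw counts per gene and library, made with fastp 0.23.2, STAR 2.7.5c and featureCounts 2.0.1 on GRCm38 (mm10), per the submitters' processing notes, which also name edgeR 3.42.4. Settings and annotation were not stated there. Saline columns were matched by Ctrl and a number, and DTx columns, whose numbers no label holds, by group alone. The design text gives 3 saline animals. A further 1 column of per-sample values, also named Ctrl, had no sample record and was not used. Every statement on overlap thus rests on 2 saline libraries. Libraries are not said to be separate animals, so a p-value covers only the variation among them. The smallest chi-square per degree of freedom between 2 libraries was 14.25.

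Counts were fitted with edgeR 4.0.16 in R 4.3.3 (TMM, filterByExpr with a minimum count of 10, robust quasi-likelihood F test, Benjamini-Hochberg adjustment over all genes, threshold 0.05), after a check on simulated data. The SE is the log2 fold change over the square root of F. Counting intervals cover counting error only. Alternatives were DESeq2 1.42.0, limma-voom (limma 3.58.1), the likelihood ratio test, other scalings and filters, and leaving out each library. Exon lengths and positions come from GENCODE M21.

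The 10 genes and all lists were chosen with earlier results of these data known. The text names the 10 genes, Ccr2, up to 4 genes of smallest p per pathway list, genes of high level in marker lists, 3 most alike genes each for Nfkbia, Icam1 and Vcam1, and others as stated.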

Additional observations from a re-analysis of the deposited data

How the results depend on the processing

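The number of the 10 NF-kB genes past the threshold was 0 under every alternative run, and 0 with any 1 library left out. The number of genes past it in the whole table, 5, was 9 with no low-count filter, 111 with DESeq2 and 93 with the edgeR likelihood ratio test, and 5 to 13 with a library left out. The count of NF-kB genes without overlap, 5, was 4 to 5 under other scalings and filters. It was 5 to 7 with a library left out, but a smaller group overlaps less easily. This count could therefore hardly fall, and the leave-out range is no check of it. Their median log2 fold change, 0.55, was 0.305 where genes needed at least 1 CPM in 2 libraries, which removed Bcl3, and 0.492 (without DTx library 6A) to 0.700 (without saline replicate 2) with a library left out. Of 139 single-gene values under alternatives, 134 kept their direction and side of the threshold and 5 turned. With a library left out, the log2 fold change of Nfkb1 ranged from -0.06 (without saline replicate 2) to 0.621, of Nfkb2 from -0.503 to 0.37 (without saline replicate 1, and 0.014 without DTx library 5A), of Rela from -0.272 to 0.088 (without library 5A) and of Vcam1 from -0.116 (without saline replicate 1) to 0.566. The cause was not tested. Over all alternatives the adjusted p of Icam1 was 0.0946 to 1 and of Nfkbia 0.122 to 1, lowest with DESeq2. Where 1 saline library was left, it was assumed to vary like the DTx-labelled libraries. No paired analysis was possible because the numbers of the DTx columns are in no label. Bcl3, with 8 saline counts, and Icam1, with 23, rest on few counts in that group.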
